A study of Homo sapiens with 4 samples.

Results

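Aminoacyl-tRNA synthetases are the enzymes that join each amino acid to its transfer RNA before translation. The 38 genes described here were taken by name, with no threshold on a measured value, although the family was picked with earlier results of these data known: 20 cytosolic enzymes, 16 mitochondrial enzymes, whose symbols end in 2, and the scaffold genes AIMP1 and AIMP2. All 38 were found among the 19732 gene symbols of the A549 table and in the table of H1299, and all passed a minimum of 1 FPKM in either A549 library, which 12230 symbols passed. A549 is a human lung adenocarcinoma cell line. One library came from A549 cells after knockdown of RBM4 (titled sh), and 1 came from the control A549 culture. RBM4 binds RNA and acts in splicing and in translation. The series title asks about RBM4 and senescence. The same 2 conditions were described for H1299, another lung cancer line, but those libraries were not analysed here because the columns of that table could not be matched to the samples by name. The sources used here give no sequence for the knockdown, no time after it and no description of the control culture, and the column read as the knockdown is the one whose name adds a number to that of the cell line.

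Human cells hold a set of synthetases for the cytosol and another for mitochondria, both encoded in the nucleus. Each set holds enzymes of unrelated folds, called class I and class II. Some of the cytosolic enzymes are held together by scaffold proteins in the multi-tRNA synthetase complex, while the rest act freely. In mammalian cells under amino acid or endoplasmic reticulum stress, the transcription factor ATF4 raises transcription of many cytosolic synthetase genes through a short element called the C/EBP-ATF response element.

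The synthetases as a family differed little between the 2 libraries, and most members were slightly lower in the knockdown. Values are FPKM (fragment counts divided by transcript length and library depth) summed over the transcripts of a gene. Differences are log2 ratios, knockdown over control, with 1 added to both FPKM values, which understates the change of low genes. Of the 38 members, 31 had a difference below 0, against 53.4% of all genes. With transcripts of the mitochondrial genome left out, 24 members did, against 39.0% of all genes. In that setting, and after rescaling to the same total, 29 members lay below the median of all genes, as they did with FPKM as deposited. The median difference of the 38 was -0.23, against -0.04 for all genes. With 1 library per group there is no replicate error, no test was made, and each difference below is a comparison of 2 libraries. Fewer cells of a kind and less RNA per cell cannot be told apart in these bulk samples.

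RBM4 had 30.6 FPKM in the knockdown and 59.4 FPKM in the control library, 51.5% of the control. The libraries held 622366 and 671529 FPKM in all, knockdown first, and the mitochondrial genome held 21.7% of it in the knockdown and 18.6% in the control. Read numbers were not part of the sources used, so depth is unknown and no counting interval can be attached. The 5 epithelial markers summed to 1875 FPKM in the knockdown and 3539 FPKM in the control. The keratin genes KRT8 (888 and 1646 FPKM, -0.89) and KRT18 (912 and 1853 FPKM, -1.02) were lower in the knockdown, given first, and KRT19 (64.9 and 29.6 FPKM, 1.11) was higher. Of 6 alveolar genes, SFTPB, SFTPA1, SFTPA2 and NKX2-1 were listed at 0 in both libraries, AGER had 0.91 FPKM in the knockdown and 1.10 FPKM in the control, and SFTPC had 0.35 FPKM in the knockdown and was listed at 0 in the control. Markers of other cell types summed to more in the knockdown library, and 1 or 2 genes made up most of each sum. For 7 fibroblast genes the sums were 36.3 and 8.67 FPKM, knockdown first, with DCN at 0 in both. The 2 past the minimum were THY1 (25.98 and 5.73 FPKM) and COL1A1 (9.47 and 2.61 FPKM). For 6 blood and immune genes the sums were 30.2 and 9.06 FPKM, with CD3E and LYZ at 0 in both. The 2 past the minimum were CD68 (25.8 and 6.90 FPKM) and CD14 (4.32 and 2.16 FPKM). For 4 endothelial genes the sums were 18.8 and 3.04 FPKM, with VWF at 0 in both, and ESAM alone (18.5 and 3.04 FPKM) was past the minimum. The part of these markers in the results on synthetases was not tested.

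The member that stood furthest from the rest was MARS, the cytosolic methionyl-tRNA synthetase gene, and its difference rested on 1 short transcript. The 2 MARS transcript models that carried most of the signal share their first coding bases and then part. They are shown from the start codon, from GENCODE release 29 on GRCh38, plus strand, with the part that differs in capitals.
ENST00000630571: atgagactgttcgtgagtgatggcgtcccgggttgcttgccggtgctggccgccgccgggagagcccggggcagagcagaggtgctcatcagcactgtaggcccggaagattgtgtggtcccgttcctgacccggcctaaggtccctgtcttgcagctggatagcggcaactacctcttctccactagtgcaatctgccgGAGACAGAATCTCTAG
ENST00000262027: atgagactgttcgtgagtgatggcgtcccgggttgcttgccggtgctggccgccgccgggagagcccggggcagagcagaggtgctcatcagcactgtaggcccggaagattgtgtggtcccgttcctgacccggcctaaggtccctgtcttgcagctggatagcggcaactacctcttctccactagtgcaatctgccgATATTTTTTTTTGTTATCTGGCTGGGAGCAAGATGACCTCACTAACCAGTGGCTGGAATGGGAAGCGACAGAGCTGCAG
The upper sequence is the whole of the short model, 216 bases spread with introns over chr12:57488091-57489911. The lower is the start of the full-length model, at chr12:57488091-57489345, whose 2905 bases in 21 exons encode the enzyme of 900 codons. The models share 200 bases. The short model then skips exons 3 and 4 of the full-length model, 79 and 135 bases long, and enters exon 5. The skipped 214 bases are not a multiple of 3, and the short model reaches a stop codon after 71 codons. It holds 16 bases of exon 5, and the annotation ends it there.

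The short MARS model had 80.8 FPKM in the knockdown and 8.49 FPKM in the control library, 9.52 times as much. The full-length model had 48.2 FPKM in the knockdown and 54.8 FPKM in the control library (log2 difference -0.18). Summed over its 8 listed transcripts, MARS (ENSG00000166986) therefore had 134.1 and 66.4 FPKM, knockdown first, a log2 difference of 1.00. It was the only member of the 38 at least 2-fold higher, against 4.96% of all genes, and the only one at least 1.5-fold higher, against 12.7%.

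FPKM divides by length, so a short model weighs heavily in such a sum. Multiplied by annotated length in kilobases, as an approximation to the fragments assigned, the short model stood at 17.5 in the knockdown and 1.83 in the control, and the full-length model at 140 in the knockdown and 159 in the control. The length by which the authors' software divided was not checked and may differ from the annotated one, above all for so short a model. On that scale MARS totalled 162 in the knockdown and 163 in the control, and its log2 difference was -0.01. With transcripts under 300 bases left out it was -0.12, and with only the most abundant transcript of each gene it was -0.18. Short models differed often in these libraries: of 95 transcripts under 300 bases with at least 1 FPKM, 27.4% were at least 2-fold higher and 43.2% at least 2-fold lower in the knockdown, against 8.56% and 8.12% of 29998 longer transcripts. Of the 35 annotated MARS transcripts, 2 hold the junction that skips exons 3 and 4, and 1 of these is listed in the table. MARS also shares 355 exonic bases at its other end with DDIT3, a stress-induced transcription factor gene on the opposite strand, which had 21.0 FPKM in the knockdown and 6.04 FPKM in the control (log2 difference 1.64). How fragments were shared between overlapping genes and models was not tested.

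**Figure D1:**
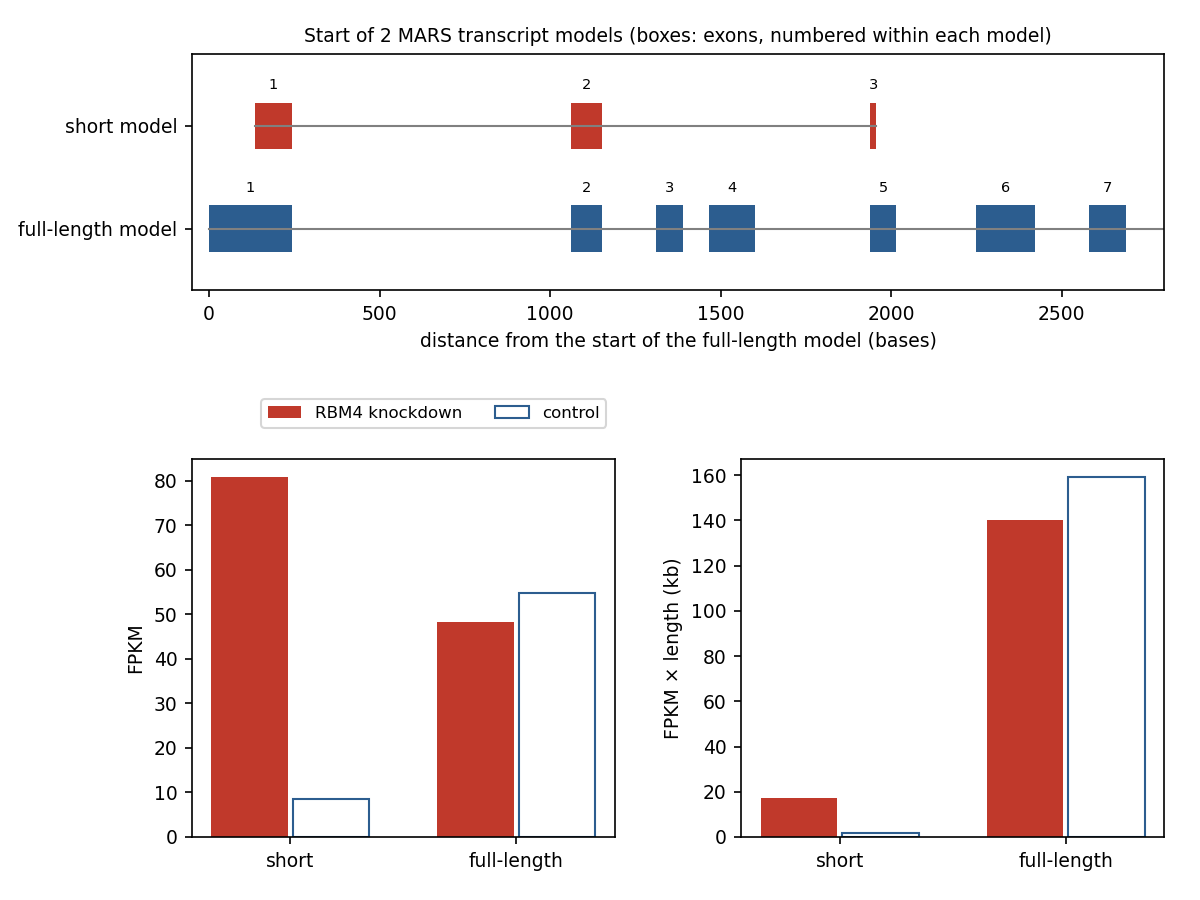
The 2 MARS transcript models. The upper panel shows their exons as boxes against genomic distance in bases from the start of the full-length model, and the lower panels show FPKM and FPKM multiplied by length in kilobases, 1 library per bar, knockdown filled and control open. The short model stands at 80.8 FPKM in the knockdown against 8.49 FPKM in the control, but at 17.5 against 1.83 once length is restored, far below the full-length model at 140 and 159.

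The other members of the multi-tRNA synthetase complex were mostly lower in the knockdown library, the scaffolds most of all. Of its 10 members listed here, 8 had a difference below 0 and their median was -0.36, which relative to the median of all genes was -0.32 as deposited and -0.33 with the mitochondrial genome left out. AIMP1 (ENSG00000164022, chromosome 4, 106315544 to 106349226, plus strand), a scaffold that also binds transfer RNA, had 18.4 FPKM in the knockdown and 32.3 FPKM in the control, a log2 difference of -0.78. AIMP2 (ENSG00000106305, chromosome 7, 6009245 to 6023834, plus strand), the scaffold that ties the parts of the complex together, had 31.7 and 51.4 FPKM, knockdown first, a log2 difference of -0.68. These were 2 of the 3 members at least 1.5-fold lower, against 9.83% of all genes. No member was 2-fold lower, against 2.25% of all genes.

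Both scaffold results have limits that the files show. AIMP1 was listed mainly as 2 transcripts, and the longer, ENST00000394701, had 11.9 and 18.1 FPKM (-0.56), knockdown first, while the 568-base ENST00000510207 had 6.23 and 13.2 FPKM (-0.98). With only the most abundant transcript, and 1 added to both values, AIMP1 was thus short of 1.5-fold. The plain FPKM ratio of that transcript, 0.658, was just past 1.5-fold. AIMP2 was short of 1.5-fold at -0.58 after rescaling to the same total and at -0.53 with the mitochondrial genome left out. AIMP1 shares 387 exonic bases with TBCK and AIMP2 shares 532 with EIF2AK1, both on the opposite strand. EIF2AK1, which encodes a stress kinase, was lower too, at 29.2 FPKM in the knockdown and 45.5 FPKM in the control (-0.62), whereas TBCK had 5.74 and 4.50 FPKM (0.29). EEF1E1, the remaining scaffold of the complex and not among the 38, had 31.9 FPKM in the knockdown and 43.3 FPKM in the control (-0.43).

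Among the enzymes of the complex, 6 of 8 had a difference below 0. IARS, for isoleucine, had 62.1 FPKM in the knockdown and 86.4 FPKM in the control (-0.47), and DARS, for aspartate, had 26.7 and 37.4 FPKM (-0.47). KARS, for lysine, had 60.8 and 79.1 FPKM (-0.37), and EPRS, which joins the glutamate and proline enzymes in 1 protein, had 37.8 and 48.4 FPKM (-0.35). These 4 lay close together, below the median of all genes and short of 1.5-fold. LARS, for leucine and a sensor of it for mTORC1, had 59.3 FPKM in the knockdown and 70.8 FPKM in the control (-0.25). A 720-base model held 44.0% of its FPKM in the knockdown and 36.8% in the control. With only that most abundant transcript LARS was at 0.0045, and with transcripts weighted by length it was at -0.37. RARS, for arginine, had 64.8 and 73.3 FPKM (-0.18). QARS, for glutamine, was above 0 with 78.9 and 69.6 FPKM (0.18), and a 544-base model held 53.3% of its FPKM in the knockdown and 49.6% in the control.

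**Figure D2:**
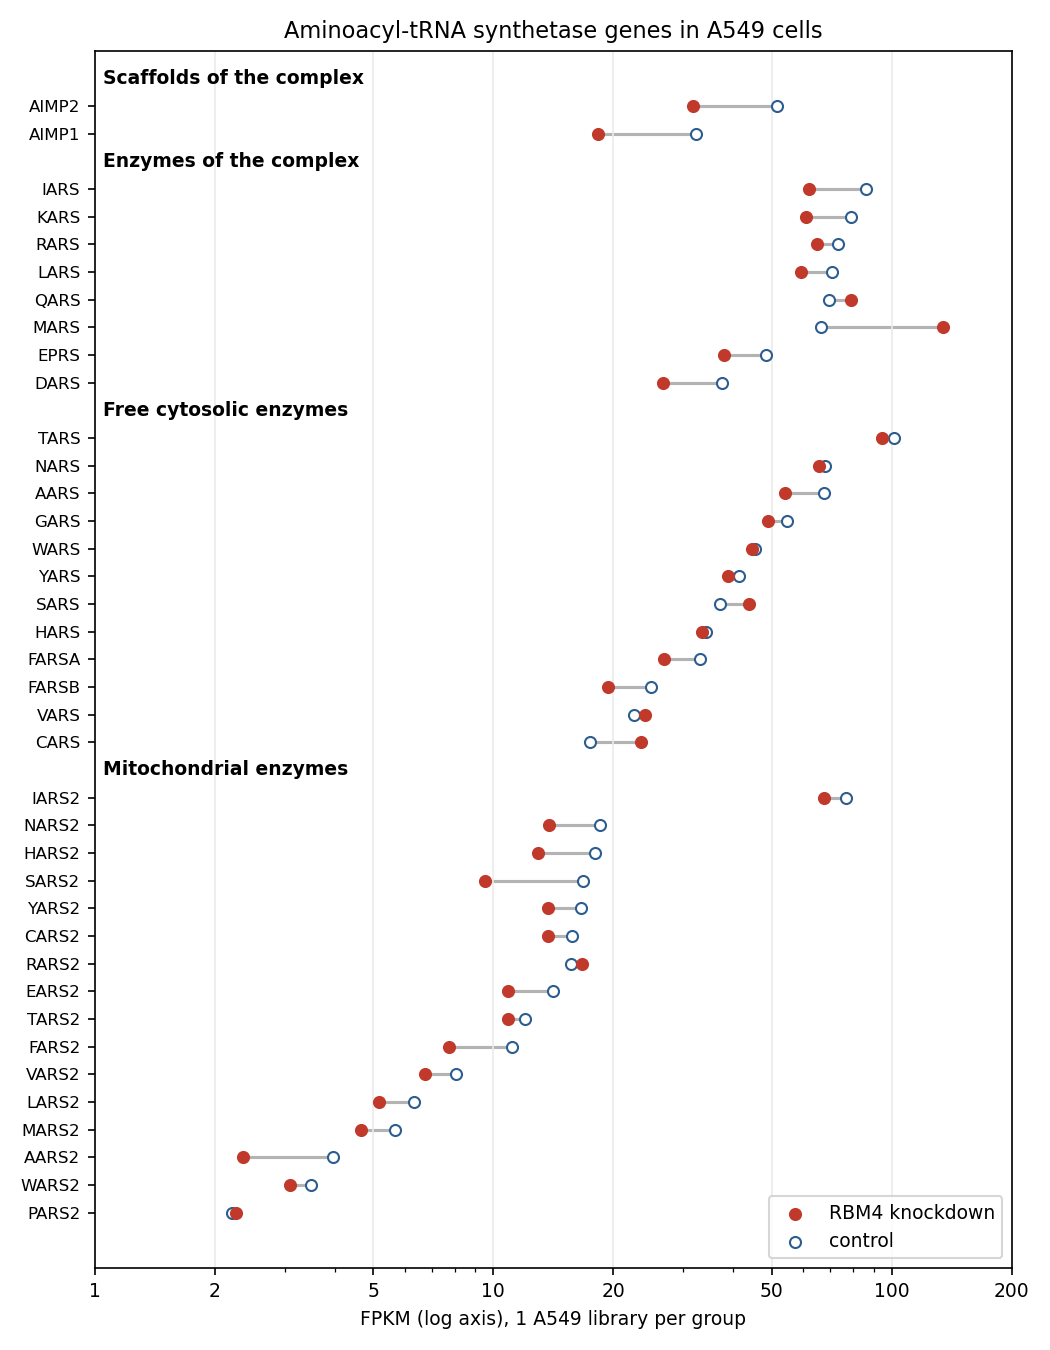
FPKM of all 38 genes in the 2 A549 libraries on a log axis, filled for the RBM4 knockdown and open for the control, with 1 library per group and the genes grouped by role. The knockdown point lies left of the control point for 31 genes, and the longest gap to the right is that of MARS.

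KARS makes its cytosolic and mitochondrial enzymes from 1 gene by alternative splicing, so its transcripts bear on the contrast of the compartments. ENST00000302445, with the 597 codons of the cytosolic enzyme, had 56.3 FPKM in the knockdown and 70.0 FPKM in the control (-0.31). ENST00000319410, with the 625 codons of the mitochondrial enzyme, had 2.12 FPKM in the knockdown and 4.93 FPKM in the control (-0.93). The mitochondrial form thus held 3.48% of KARS FPKM in the knockdown and 6.23% in the control. This share rests on a minor transcript. Other minor KARS models differed as well, knockdown first: ENST00000570215 (1.25 and 2.43 FPKM) and ENST00000566772 (0.59 and 1.41 FPKM) were lower, and ENST00000568682 (0.55 and 0.38 FPKM) was higher. KARS shares 176 exonic bases with TERF2IP on the opposite strand, and how fragments were divided was not tested.

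The free cytosolic enzymes lay nearest to all genes. Their 12 differences had a median of -0.07 and ran from FARSB at -0.34 to CARS at 0.40, none of them 1.5-fold. FARSA and FARSB, the subunits of the phenylalanine enzyme, had alike differences: FARSA had 26.8 FPKM in the knockdown and 33.0 FPKM in the control (-0.29), and FARSB had 19.4 and 24.9 FPKM (-0.34). AARS, for alanine, had 53.9 and 67.4 FPKM (-0.32). GARS, for glycine in both compartments, had 48.8 and 54.7 FPKM (-0.16).

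Closest to 0 were HARS, for histidine, with 33.5 FPKM in the knockdown and 34.1 FPKM in the control (-0.03), and WARS, for tryptophan and induced by interferon gamma, with 44.5 and 45.4 FPKM (-0.03). NARS, for asparagine (65.7 and 67.9 FPKM, -0.05), YARS, for tyrosine (38.9 and 41.2 FPKM, -0.08), and TARS, for threonine (94.7 and 101.3 FPKM, -0.10), were near them. All 5 were above 0 after rescaling to the same total or with the mitochondrial genome left out, and WARS was at -0.52 with only its most abundant transcript. VARS, for valine, which binds the elongation factor that receives charged transfer RNA, had 24.01 and 22.5 FPKM (0.09).

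CARS and SARS were the highest free enzymes. CARS, for cysteine, had 23.4 FPKM in the knockdown and 17.5 FPKM in the control (0.40), and 1 of its 3 detected transcripts, ENST00000397111, had 8.66 and 4.64 FPKM (0.78) while the others differed by 0.23 and 0.09. SARS, for serine, had 43.8 FPKM in the knockdown and 37.1 FPKM in the control (0.23).

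The mitochondrial enzymes were lower in the knockdown library as a set by a small margin. Of the 16, 14 had a difference below 0, and the median was -0.24, against -0.13 for the 20 cytosolic enzymes. With the mitochondrial genome left out the mitochondrial median was -0.11 and the cytosolic one turned to 0.03. The gap between the medians, 0.11, stayed positive under each setting tried and ran from 0.04 to 0.15. Relative to the median of all genes the mitochondrial set lay at -0.20 and the cytosolic set at -0.09. The lowest was SARS2 (ENSG00000104835, chromosome 19, 38915266 to 38930896, minus strand), for mitochondrial serine, with 9.54 FPKM in the knockdown and 16.8 FPKM in the control (-0.76), the third member past 1.5-fold. SARS2 shares 349 exonic bases with MRPS12, a mitochondrial ribosomal protein gene on the opposite strand that had 74.4 FPKM in the knockdown and 105.3 FPKM in the control (-0.49). It shares another 1492 with a locus on the same strand, so its level is uncertain.

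AARS2, for alanine, was next with 2.35 FPKM in the knockdown and 3.97 FPKM in the control (-0.57), short of 1.5-fold. With a pseudocount of 0.1 it was past it, at -0.73. FARS2, for phenylalanine, had 7.73 and 11.1 FPKM (-0.48), HARS2, for histidine, had 12.9 and 18.0 FPKM (-0.45), and NARS2, for asparagine, had 13.8 and 18.5 FPKM (-0.40). At the other end, RARS2, for arginine, had 16.6 FPKM in the knockdown and 15.6 FPKM in the control (0.08), and PARS2, for proline, had 2.26 and 2.21 FPKM (0.02). TARS2, for threonine, followed at -0.12. The rest, EARS2, YARS2, LARS2, MARS2, VARS2, CARS2, IARS2 and WARS2, lay between -0.34 and -0.13.

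**Figure D3:**
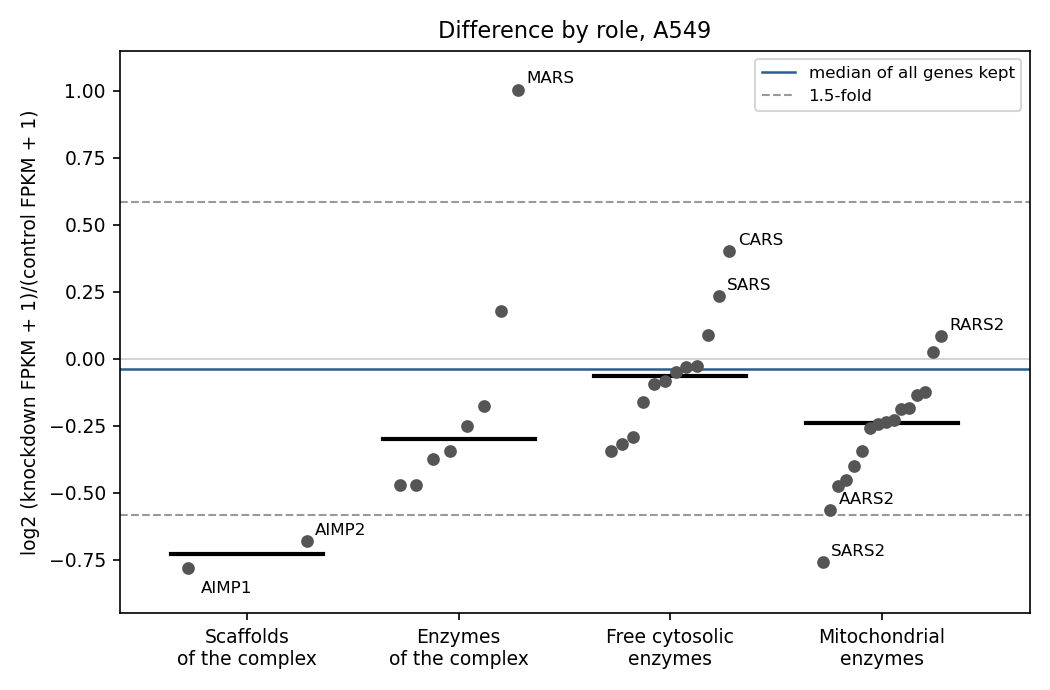
Difference of each gene, as a log2 ratio of knockdown over control with 1 added to both values, by role, with 1 point per gene and a black bar at the median of each role. The blue line marks the median of all genes at -0.04 and the dashed lines mark 1.5-fold. Both scaffolds and SARS2 lie below the lower dashed line and MARS alone lies above the upper one.

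Levels separated the compartments far more than the knockdown did. FPKM is per length, so levels were set side by side, although a short model weighs heavily in a sum over transcripts. Such models held 60.3% of MARS, 53.3% of QARS and 44.0% of LARS in the knockdown, and 12.8%, 49.6% and 36.8% in the control. The median mitochondrial enzyme had 10.2 FPKM in the knockdown and 13.0 FPKM in the control. The median cytosolic enzyme had 46.7 FPKM in the knockdown and 51.5 FPKM in the control. Over 16 amino acids with an enzyme in each set, EPRS standing for both glutamate and proline, the cytosolic gene exceeded the mitochondrial one for 15 in the knockdown and for all 16 in the control, by medians of 4.24 times in the knockdown and 3.55 times in the control. The exception was isoleucine, where IARS2 had 67.5 FPKM in the knockdown and 76.9 FPKM in the control, so that the ratio of IARS to IARS2 was 0.92 in the knockdown and 1.12 in the control. IARS2 was the only mitochondrial enzyme above 20 FPKM. The widest ratio in the knockdown, 28.8 for MARS over MARS2 against 11.7 in the control, includes the short MARS model.

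For 11 of the 16 amino acids the mitochondrial gene had the lower difference of the pair. Serine stood out beside methionine: the ratio of SARS to SARS2 was 4.59 in the knockdown and 2.21 in the control, since SARS was higher and SARS2 lower in the knockdown. For proline, isoleucine and arginine the cytosolic gene had the lower difference, with differences of -0.37, -0.28 and -0.26 relative to the mitochondrial gene. Leucine and glutamate, at -0.0088 and -0.0029, complete the 5 such pairs.

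HARS and HARS2 lie head to head on chromosome 5 and share sequence at their starts, which makes them the closest neighbours among the pairs. Their starts in RefSeq are 84 bases apart on opposite strands, and the promoter window of each (250 bases before to 50 after the start) holds the same 2 matches to CCGGAAGT, a motif bound by ETS-family factors. Both matches are shown in the direction of HARS2, from RefSeq on GRCh38.p14, with the motif or its reverse complement in capitals.
chr5:140691361-140691390: cagcaaggatgACTTCCGGctatcgagtcg
chr5:140691436-140691465: tccggctcctcCCGGAAGTgccgaagctgg
CCGGAAGT, searched on both strands, was found for 8 of the 32 members with a promoter window, HARS and HARS2 among them. It was found for 1351 of all 27305 genes and in 4.14% of all 35116 windows. HARS had a difference of -0.03 and HARS2 of -0.45. HARS and HARS2 share 437 exonic bases on opposite strands, and HARS2 shares 152 with ZMAT2, so their values are uncertain where fragments could be split.

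The octamer TTGCATCA, a form of the C/EBP-ATF response element, was searched on both strands of the promoter windows, which RefSeq gave for 32 of the 38 members (for all but AARS2, DARS, LARS, VARS, VARS2 and YARS). It was found for 6 of 16 cytosolic genes, for 0 of 14 mitochondrial genes and for neither scaffold, so 10 of the 16 cytosolic genes lacked it. Among all genes with a window it was found for 295 of 27305, and in 0.866% of all 35116 windows. The 6 sites are shown with 11 bases on each side, in the direction of the gene, the octamer or its reverse complement in capitals.
AARS: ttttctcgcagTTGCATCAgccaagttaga
CARS: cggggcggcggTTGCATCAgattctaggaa
IARS: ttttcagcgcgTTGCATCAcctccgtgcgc
MARS: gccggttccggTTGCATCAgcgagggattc
NARS: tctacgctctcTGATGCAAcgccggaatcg
TARS: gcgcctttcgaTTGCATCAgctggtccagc
They lie at chr16:70289675-70289704, chr11:3057407-3057436, chr9:92293692-92293721, chr12:57488053-57488082, chr18:57621804-57621833 and chr5:33440956-33440985, in that order. Genes with several starts have several windows, and the looser TGATGNAA, which covers each of these 6 sites on the other strand, was found for 7 of the 16 cytosolic and 1 of the 14 mitochondrial genes, YARS2, and for 1217 of all 27305 genes (3.62% of all windows). CACGTG was found for 5 of the 32 members and 2396 of all genes (7.26% of all windows), and the palindromic motif of nuclear respiratory factor for 1 member, MARS2, and 414 of all genes (1.24% of all windows). A match is a description of the letters and shows no binding.

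The genes with the octamer did not differ together. IARS (-0.47) and AARS (-0.32) were lower in the knockdown, TARS (-0.10) and NARS (-0.05) lay near 0, CARS was higher at 0.40, and MARS was at 1.00 or -0.01 according to the weight of its short model. The median of the 6 was -0.07. ATF4 itself had 198.9 FPKM in the knockdown and 165.4 FPKM in the control (0.27), and the 12 synthetases known as its targets had a median of -0.09, with 9 below 0.

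Of 16 other known ATF4 targets, 8 were above and 8 below 0 with a median of 0.05. At least 2-fold higher were 4 of the 16, against 4.96% of all genes, and at least 2-fold lower were 3, against 2.25% of all genes. Highest was STC2, a secreted glycoprotein gene, with 19.5 FPKM in the knockdown and 4.94 FPKM in the control (1.78). Lowest was the amino acid transporter SLC7A5, with 165 and 507 FPKM (-1.61). ASNS, the asparagine synthetase gene, had 16.4 and 24.4 FPKM (-0.55), and DDIT3 stood at 1.64.

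Genes that act on transfer RNA beside the synthetases resembled them. Of 18, 17 had a difference below 0, against 53.4% of all genes, and their median was -0.24. Among them 1 was 1.5-fold higher, against 12.7% of all genes, and 1 was 1.5-fold lower, against 9.83%. The lower was TRMU, which modifies mitochondrial transfer RNA, with 4.20 FPKM in the knockdown and 7.69 FPKM in the control (-0.74). The higher was TARSL2, a threonyl-tRNA synthetase-like gene, with 9.32 and 5.56 FPKM (0.65). XPOT, which exports transfer RNA from the nucleus, had 36.2 and 42.6 FPKM (-0.23). Of 10 genes listed for elongation 9 were below 0, with a median of -0.22 and none at 1.5-fold. EEF1E1, the lowest of them and a scaffold of the synthetase complex, is in both lists. The counts in these lists were made on FPKM as deposited, where the median of all genes was -0.04.

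Class I and class II enzymes had medians of -0.18 over 18 genes and -0.32 over 17. The 38 genes together held 0.208% of all FPKM in the knockdown and 0.210% in the control, and the share of that sum held by mitochondrial enzymes was 15.6% in the knockdown and 17.4% in the control.

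Of 28 genes with several transcripts above 0, the share of the leading transcript differed by at least 10 percentage points in 5. Counting any transcript, 8 members had a share that differed by as much, with CARS, TARS2 and VARS2 added. The same counts were not made over all genes, so whether such shifts are particular to the synthetases was not tested. For MARS the leading share was 35.9% in the knockdown and 82.5% in the control. CARS2 had 78.4% and 90.7%, knockdown first, NARS had 78.7% and 89.7%, and WARS had 22.8% and 33.1%. NARS2 alone had a higher leading share in the knockdown, at 65.6% against 53.9% in the control. In NARS the 562-base ENST00000587194 had 13.99 FPKM in the knockdown and 6.99 FPKM in the control while the leading transcript, ENST00000256854, had 51.7 and 60.9 FPKM.

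VARS2, the mitochondrial valine enzyme gene, spread its FPKM over 6 transcripts and differed most in make-up after MARS. The 460-base ENST00000421263 had 2.61 FPKM in the knockdown and 0.94 FPKM in the control, 38.7% and 11.6% of the gene. The 3362-base ENST00000625423 had 0.18 FPKM in the knockdown and 2.15 FPKM in the control, 2.71% and 26.7% of the gene. With transcripts weighted by length, VARS2 stood at -0.50 in place of -0.23. VARS2 shares 1858 exonic bases with GTF2H4 on the same strand. With that weighting 32 of the 38 genes lay below 0 and no gene was 1.5-fold higher.

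**Figure D4:**
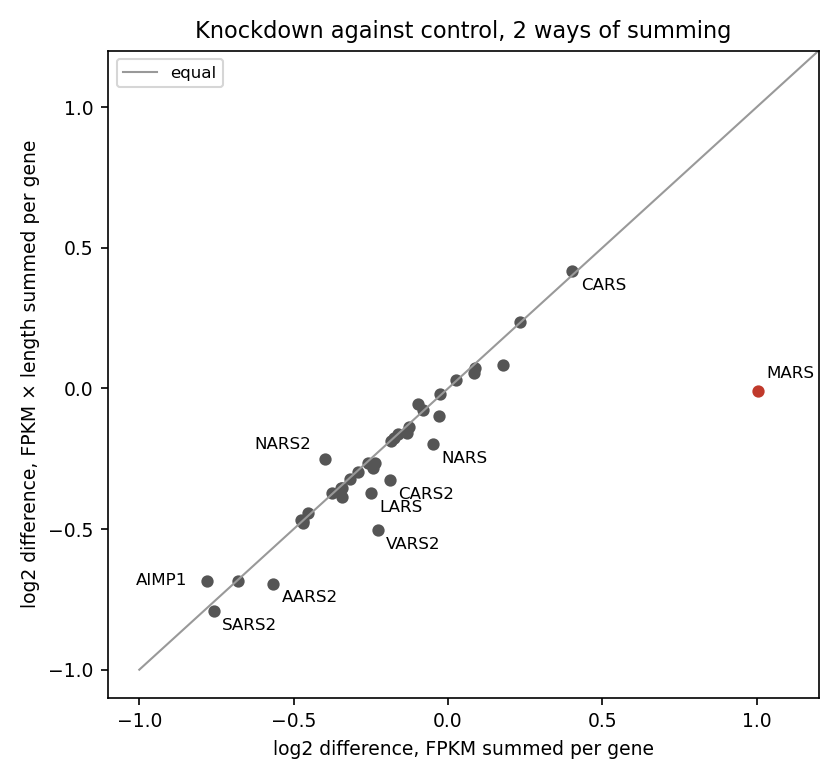
Difference of each of the 38 genes with FPKM summed over transcripts (horizontal) against FPKM multiplied by length and then summed (vertical), both as log2 of knockdown over control with 1 added to each, 1 point per gene. Most points lie close to the line of equal values, while MARS is at 1.00 by the first and -0.01 by the second, and VARS2 at -0.23 and -0.50.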

How the data were processed

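The deposited values were FPKM per transcript, computed by the authors. The submitters' processing notes name Cufflinks, TopHat and CASAVA 1.8.2 and the build hg38. The authors' annotation release and filters are not given in the sources used here. Per the labels' protocols, total RNA was prepared with an Illumina TruSeq RNA kit. How strands were treated was not given.

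Python 3.11.15 with pandas 2.3.3 summed transcripts per symbol, kept genes reaching 1 FPKM in at least 1 of the A549 libraries, and took log2 differences with a pseudocount of 1. Differences of 2-fold and 1.5-fold were counted. The 2-fold counting was tested on simulated data without noise. No test was possible with 1 library per group. Lengths, exons and overlaps came from GENCODE release 29, which matched 99.5% of transcripts by identifier. Promoter windows came from RefSeq on GRCh38.p14. A total of 3 value columns, in the H1299 table, matched no sample label and were not used. Every member is accounted for. The genes given values by rule were RBM4, the complex, members at least 1.5-fold different, the 3 highest and 3 lowest of each compartment, and the HARS pair. Other values are shown besides. Members, lists and motifs were chosen with earlier results of these data known, and the length-based settings after their values were seen.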

Additional observations from a re-analysis of the deposited data

How the results depend on the processing

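Medians moved with scaling. The cytosolic median, -0.13 as deposited, was -0.020 after rescaling to the same total and 0.034 with the mitochondrial genome left out, settings that put all genes at medians of 0.07 and 0.13. The mitochondrial median was -0.11 with the mitochondrial genome left out, and that of the complex was -0.25 after rescaling and -0.20 with the mitochondrial genome left out. Relative to the median of all genes, the cytosolic, mitochondrial and complex medians were -0.09, -0.20 and -0.32 as deposited, -0.09, -0.23 and -0.33 after rescaling, and -0.10, -0.24 and -0.33 with the mitochondrial genome left out. The counts of 1 member 2-fold higher and 1 member 1.5-fold higher, both MARS, were 0 with the highest transcript per symbol, with transcripts under 300 bases left out, with transcripts weighted by length, and with members that overlap another protein-coding gene left out. MARS itself was -0.18, -0.12 and -0.0086 under the first 3 of these. The count of 3 members 1.5-fold lower was 0 with overlapping members left out, which removes all 3, and 2 to 4 otherwise. A median was counted as moved when it differed by more than 0.1. No paired analysis was possible because each group has 1 library. The H1299 counterparts were not run. Depth is unknown, so low members such as PARS2, AARS2 and WARS2 carry the least certain values.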
